A study of Mus musculus with 4 samples.

Results

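RUVBL2 occupancy at genes that encode the splicing machinery was examined in the hypothalamus of 8-week-old male C57BL/J mice of WT genotype. RUVBL2 is an AAA+ ATPase of chromatin remodelling and chaperone complexes. Chromatin immunoprecipitation with an antibody against RUVBL2 gave 2 ChIP libraries, and 2 input libraries were made from the same tissue; all 4 carry no transgene, deletion or treatment in the labels. The labels do not say whether the replicate numbers 1 and 2 stand for separate animals or pools, so agreement between replicates may be technical in part. The chromatin was that of the whole hypothalamus and not of chosen cells. Of 12 hypothalamic neuron marker genes, Pomc held a region found in both libraries, and none of 15 markers of glia, endothelium and liver held a peak in either list. A peak does not measure expression, so the markers do not check the tissue.

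The genes were taken by name from a RefSeq table of GRCm38.p6. They were the protein-coding genes whose symbols begin with Srsf, Sf3a, Sf3b, Snrp, Prpf, Hnrnp or U2af, plus Clk1, Clk2, Clk3 and Clk4. This gave 73 of 21779 protein-coding genes. The core snRNP genes (12 Snrp, 3 Sf3a and 6 Sf3b genes, 21 in all) were set beside the 32 SR and hnRNP genes (11 Srsf and 21 Hnrnp genes). The remaining 20 genes were 13 Prpf, 3 U2af and 4 Clk genes. The symbols that begin with Snrnp do not match the rule and are given with other spliceosome genes further on.

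The spliceosome removes introns from pre-mRNA. Its small nuclear ribonucleoproteins (snRNPs) carry a ring of Sm proteins around a small RNA, and the SF3A and SF3B proteins of the U2 particle hold the branch point. SR proteins, encoded by the Srsf genes, bind exons and mostly favour their inclusion, while hnRNP proteins bind nascent RNA and often oppose it. CLK kinases phosphorylate SR proteins. Neurons are known for extensive alternative splicing, and several SR and hnRNP genes control their own RNA through exons that lead to its decay.

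The data were 1 peak list for each ChIP library, with 3943 peaks in replicate 1 and 6403 in replicate 2. Each peak carries the authors' fold enrichment of its summit over the background that the peak caller estimated. Where a peak of one list overlapped a peak of the other by 1 bp or more, the joined interval was called a shared region, and there were 3111 of these. A gene was counted when the midpoint of a shared region lay in its body or within 3 kb of either end. The median summit rested on 16 reads in replicate 1 and 22 reads in replicate 2, recovered from the fold and the −log10 p. Intervals of fold enrichments are exact Poisson 95% intervals of that read number with the background held fixed, and cover counting error only. Where 2 folds are given for a gene, they are those of replicate 1 and of replicate 2, in that order.

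Most of the splicing genes held a shared region. Of the 73 genes, 50 did so (68.5%, exact Clopper-Pearson 95% interval 56.6 to 78.9), where 17.2% of all protein-coding genes did. The same 50 genes held a region within 3 kb of a gene end, where 16.0% of all protein-coding genes did. In replicate 1 alone the number was 53 (72.6%, with 20.9% over all protein-coding genes), and in replicate 2 alone it was 65 (89.0%, with 32.6%). These shares were not tested against other genes, because the genes were chosen with earlier results known and are not replicates. Expression was not measured, so a comparison with expressed genes alone was not made.

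A gap between the classes was seen in replicate 1, while in replicate 2 nearly all genes of both classes held a peak. Of the 21 core snRNP genes, 13 held a shared region (61.9%, exact 95% interval 38.4 to 81.9), and of the 32 SR and hnRNP genes, 25 did (78.1%, 60.03 to 90.7). The intervals overlap, and the difference of −16.2 percentage points was not tested. In replicate 1 alone, 13 core snRNP genes (61.9%, exact 95% interval 38.4 to 81.9) and 27 SR and hnRNP genes (84.4%, 67.2 to 94.7) held a peak. These intervals overlap too, so the gap in replicate 1 is not clear of counting error. In replicate 2 alone, 19 core snRNP genes (90.5%, exact 95% interval 69.6 to 98.8) and 30 SR and hnRNP genes (93.8%, 79.2 to 99.2) did. In each class 2 genes held no peak in either list, so replicate 2 shows no clear order of the classes. By family, regions were shared at 7 of 12 Snrp, 2 of 3 Sf3a, 4 of 6 Sf3b, 8 of 11 Srsf and 17 of 21 Hnrnp genes. The Prpf genes had the lowest share of the 8 families, with 6 of 13 (46.2%), and all 3 U2af genes held a region.

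**Figure D1:**
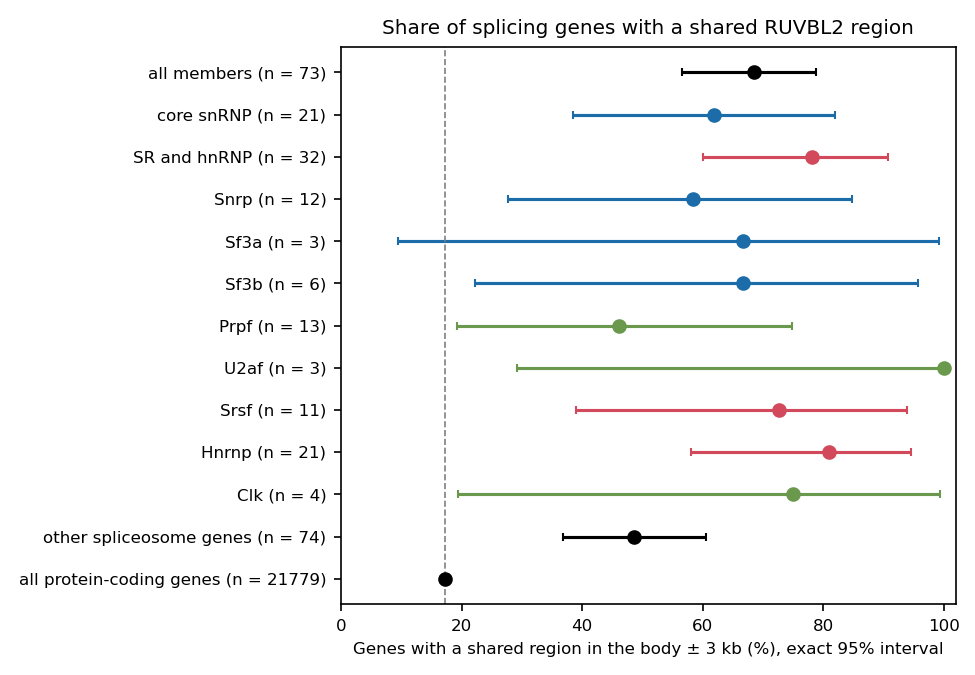
Share of genes with a shared RUVBL2 region in the gene body widened by 3 kb (x axis, percent) for the 73 splicing genes, their classes and families, other spliceosome genes and all protein-coding genes; bars are exact 95% intervals and the dashed line marks 17.2% for all protein-coding genes. The core snRNP point (61.9%) lies left of the SR and hnRNP point (78.1%) with overlapping intervals.

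The classes lay further apart among strong peaks. With only the 1000 peaks of smallest p in each list, 3 of 21 core snRNP genes (14.3%) and 18 of 32 SR and hnRNP genes (56.2%) held a shared region, against 3.08% of all protein-coding genes. With peaks of a −log10 q of at least 5, 8 core snRNP genes (38.1%) and 21 SR and hnRNP genes (65.6%) did, against 8.50%. All 73 genes together gave 25 genes (34.2%) with the top 1000 peaks.

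**Figure D2:**
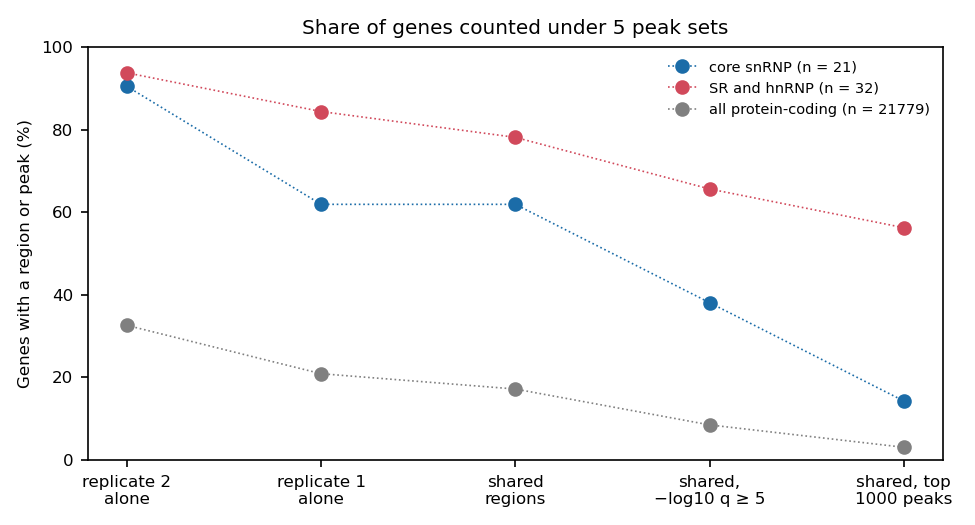
Share of core snRNP genes, SR and hnRNP genes and all protein-coding genes (y axis, percent) with a peak or shared region under 5 peak sets, given along the x axis. The core snRNP point lies at 14.3% with the top 1000 peaks, the SR and hnRNP point at 56.2% and that of all protein-coding genes at 3.08%.

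To place the regions by strength, the 3111 shared regions were ordered by the worse of their ranks by −log10 p in the 2 lists, so that place 1 is the strongest. The 13 core snRNP genes with a region had a median place of 1286, and the 25 SR and hnRNP genes a median of 330. Over all 3744 protein-coding genes with a region the median place was 1513. Of the 13 core snRNP genes, 2 were among the strongest 10% of regions, and of the 25 SR and hnRNP genes, 12 were (48.0%). Of all protein-coding genes with a region, 10.6% were. Among the 12, the regions of Hnrnpu, Hnrnpc, Hnrnpk, Hnrnpd and Hnrnpdl lay nearer the end of another gene. Those of the 2 core snRNP genes, Sf3a1 and Snrpa, did not. Places with each region credited to the closest gene end were not computed. Median folds lay closer together, at 5.55 in replicate 1 and 6.05 in replicate 2 for core snRNP genes, and 6.85 and 7.84 for SR and hnRNP genes. Over all protein-coding genes with a region the medians were 5.14 and 5.38.

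Regions at SR and hnRNP genes were also broader. The median width was 610 bp at the core snRNP genes with a region and 1149 bp at the SR and hnRNP genes, against 722 bp over all protein-coding genes with a region. Widths above 1 kb were found at 2 of 13 core snRNP genes and at 18 of 25 SR and hnRNP genes (72.0%), against 20.3% of all protein-coding genes with a region. By the strongest region of each gene, the broadest lay at Hnrnpa2b1 (2418 bp), followed by Clk3 (1821 bp), Hnrnpk (1744 bp), Hnrnph1 (1732 bp) and U2af2 (1722 bp). The narrowest lay at U2af1l4 (377 bp). These differences between the classes were not tested.

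**Figure D3:**
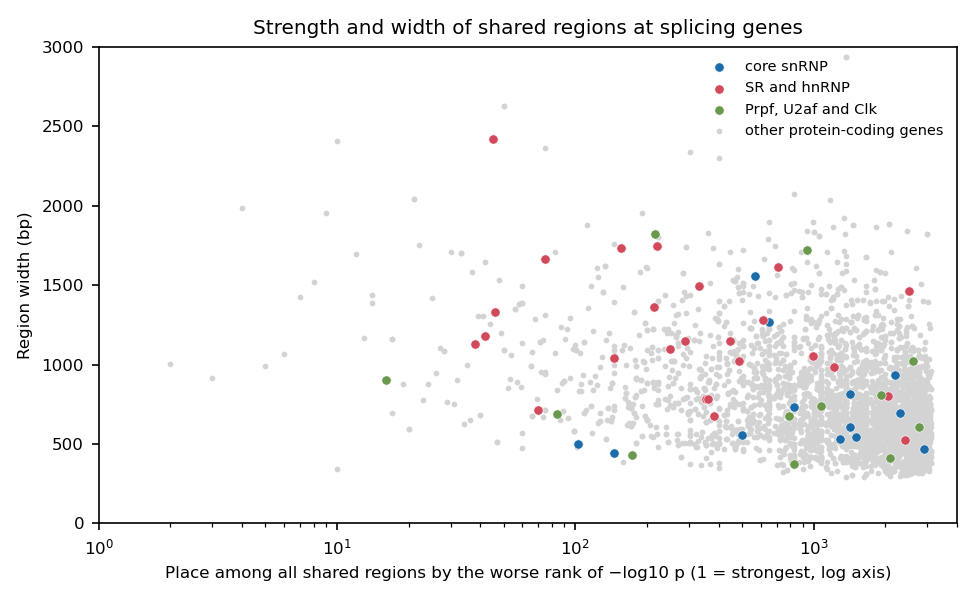
Place of each gene's strongest shared region by the worse of its ranks in both lists (x axis, log scale, 1 is the strongest) against region width in bp (y axis), for core snRNP genes, SR and hnRNP genes, Prpf, U2af and Clk genes, and other protein-coding genes in grey. SR and hnRNP genes (median place 330, median width 1149 bp) lie further left and higher than core snRNP genes (1286 and 610 bp).

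The sequences before the start sites show how the classes differ in base composition. RefSeq promoters of GRCm38.p6 were on hand for 63 of the 73 genes, 84 start sites in all, and the 250 bases before each start were read. The 22 windows of core snRNP genes came from 17 genes and the 42 of SR and hnRNP genes from 30, so genes with several start sites count more than once. Median GC content was 54.2% over the 22 windows and 68.0% over the 42 windows, against 55.6% over 21263 windows of all protein-coding genes. Of the 2 classes, the one with the larger share of genes with a region had the higher GC content. Core snRNP genes were near all protein-coding genes in GC content, but not in the ratio of observed to expected CpG. Its median was 0.82 for core snRNP genes and 0.975 for SR and hnRNP genes, against 0.53 for all protein-coding genes. Windows of splicing genes with a shared region had medians of 61.6% GC and a ratio of 0.976. Those of splicing genes without one had 56.4% and 0.812. Whether base composition has a part in the shares of genes with a region was not tested. Below are the windows of the 10 best-placed genes that have an entry, with Clk1 lacking one, followed by Sf3b6 and Snrpb2. These last are the core snRNP genes without a peak in either list. Hnrnpu owes its place to a region nearer the end of Cox20, and its window lies at its other end, in a region of place 1603. Some windows lie partly inside the annotated span of their gene, and those of Hnrnpu and Snrpa lie wholly inside it. The letters run 5′ to 3′ on the strand of the gene, and capitals mark motif matches on either strand. The motifs were CCAAT, which NF-Y is known to bind, and GGGCGG, known for SP and KLF factors. ETS factors are known to bind CCGGAAG, and the cyclic AMP response element is TGACGTCA. The E-box searched was CACGTG, and the promoter box of TATA type was searched as TATAAA. No printed window matched the longer motifs searched, which were those of NRF1, YY1, M8 and ZNF143. Matches that overlap run together.
Srsf3 (chr17:29032410-29032659, plus strand): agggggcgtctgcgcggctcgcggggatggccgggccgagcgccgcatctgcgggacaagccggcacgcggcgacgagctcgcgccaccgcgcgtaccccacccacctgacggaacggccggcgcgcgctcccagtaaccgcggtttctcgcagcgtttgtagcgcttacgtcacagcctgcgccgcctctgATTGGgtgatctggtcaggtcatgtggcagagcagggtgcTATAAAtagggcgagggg
Srsf7 (chr17:80207306-80207555, minus strand): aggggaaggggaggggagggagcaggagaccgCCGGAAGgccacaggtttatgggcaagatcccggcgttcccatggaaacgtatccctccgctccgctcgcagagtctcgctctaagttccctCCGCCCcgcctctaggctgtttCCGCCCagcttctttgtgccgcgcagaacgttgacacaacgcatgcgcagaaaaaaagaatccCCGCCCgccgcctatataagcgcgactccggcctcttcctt
Hnrnpa2b1 (chr6:51469846-51470095, minus strand): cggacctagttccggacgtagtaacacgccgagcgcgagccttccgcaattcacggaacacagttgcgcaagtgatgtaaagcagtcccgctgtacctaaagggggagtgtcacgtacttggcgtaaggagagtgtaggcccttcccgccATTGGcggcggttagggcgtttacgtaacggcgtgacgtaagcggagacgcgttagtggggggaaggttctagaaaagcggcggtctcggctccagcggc
Hnrnpu (chr1:178337816-178338065, minus strand): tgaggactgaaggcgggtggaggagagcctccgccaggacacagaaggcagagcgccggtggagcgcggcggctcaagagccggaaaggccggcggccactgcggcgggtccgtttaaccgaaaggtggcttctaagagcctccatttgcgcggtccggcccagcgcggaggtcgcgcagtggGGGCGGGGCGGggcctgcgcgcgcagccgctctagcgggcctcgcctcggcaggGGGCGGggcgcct
Srsf6 (chr2:162931258-162931507, plus strand): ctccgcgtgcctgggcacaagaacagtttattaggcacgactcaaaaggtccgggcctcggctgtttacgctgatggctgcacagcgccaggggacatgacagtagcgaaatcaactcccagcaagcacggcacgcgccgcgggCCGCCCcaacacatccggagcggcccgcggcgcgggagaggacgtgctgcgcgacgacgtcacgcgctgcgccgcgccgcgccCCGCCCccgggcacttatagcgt
Hnrnpa0 (chr13:58128557-58128806, minus strand): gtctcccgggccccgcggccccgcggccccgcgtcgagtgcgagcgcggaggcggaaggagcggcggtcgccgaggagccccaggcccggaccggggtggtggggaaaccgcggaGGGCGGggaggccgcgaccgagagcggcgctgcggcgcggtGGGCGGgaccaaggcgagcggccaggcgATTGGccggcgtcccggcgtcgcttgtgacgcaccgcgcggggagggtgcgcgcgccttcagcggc
Clk4 (chr11:51262864-51263113, plus strand): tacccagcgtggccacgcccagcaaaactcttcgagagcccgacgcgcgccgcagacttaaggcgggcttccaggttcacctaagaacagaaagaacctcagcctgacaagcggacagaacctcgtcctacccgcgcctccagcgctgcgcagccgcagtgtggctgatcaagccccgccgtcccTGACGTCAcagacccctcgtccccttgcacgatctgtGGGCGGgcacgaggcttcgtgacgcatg
Sf3a1 (chr11:4160104-4160353, plus strand): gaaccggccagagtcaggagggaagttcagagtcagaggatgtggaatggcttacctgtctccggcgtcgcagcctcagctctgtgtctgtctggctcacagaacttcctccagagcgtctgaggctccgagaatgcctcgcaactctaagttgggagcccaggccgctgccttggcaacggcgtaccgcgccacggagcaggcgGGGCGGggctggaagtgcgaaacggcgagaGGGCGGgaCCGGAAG
Snrpa (chr7:27195761-27196010, minus strand): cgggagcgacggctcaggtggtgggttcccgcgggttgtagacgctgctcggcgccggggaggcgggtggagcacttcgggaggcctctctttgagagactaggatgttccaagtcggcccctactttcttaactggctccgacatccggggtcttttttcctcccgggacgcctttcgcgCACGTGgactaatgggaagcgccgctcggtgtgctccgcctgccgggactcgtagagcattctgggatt
Hnrnpc (chr14:52104022-52104271, minus strand): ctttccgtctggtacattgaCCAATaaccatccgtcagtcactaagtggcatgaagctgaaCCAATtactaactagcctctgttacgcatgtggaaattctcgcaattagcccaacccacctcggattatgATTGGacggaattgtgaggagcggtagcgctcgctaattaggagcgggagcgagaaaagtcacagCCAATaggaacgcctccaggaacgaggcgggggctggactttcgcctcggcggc
Sf3b6 (chr12:4817358-4817607, plus strand): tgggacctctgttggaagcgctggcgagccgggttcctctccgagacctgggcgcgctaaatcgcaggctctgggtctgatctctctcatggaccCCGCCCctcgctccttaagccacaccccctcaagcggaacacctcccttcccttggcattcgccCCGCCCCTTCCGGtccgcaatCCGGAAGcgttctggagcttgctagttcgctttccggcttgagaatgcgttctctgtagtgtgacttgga
Snrpb2 (chr2:143062819-143063068, plus strand): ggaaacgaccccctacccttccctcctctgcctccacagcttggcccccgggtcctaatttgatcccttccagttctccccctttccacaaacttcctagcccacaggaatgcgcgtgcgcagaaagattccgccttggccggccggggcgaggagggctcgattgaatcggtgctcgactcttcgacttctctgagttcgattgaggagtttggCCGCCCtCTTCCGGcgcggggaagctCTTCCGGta

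The printed windows differ in kind. That of Hnrnpc holds 4 CCAAT matches and no GGGCGG, while Srsf6 and Sf3a1 hold 2 GGGCGG matches each and no CCAAT. Srsf3 is the only one of the 12 with TATAAA, and Clk4 the only one with TGACGTCA. The windows of Sf3b6 and Snrpb2, without peaks, each hold 2 matches to CCGGAAG and at least 1 to GGGCGG. Over all windows, GGGCGG was present in 9 of 22 (40.9%) of core snRNP genes and 33 of 42 (78.6%) of SR and hnRNP genes, against 42.6% for all protein-coding genes. CCGGAAG showed the other order, with 10 of 22 (45.5%) for core snRNP genes and 9 of 42 (21.4%) for SR and hnRNP genes, against 8.98%. CCAAT was present in 7 of 22 windows and 21 of 42 windows, against 35.4%. Windows of the splicing genes were also split by whether their gene held a shared region, wherever that region lay. The 55 windows with such a gene came from 43 genes, and the 29 without from 20 genes. GGGCGG was found in 39 of 55 (70.9%) and 14 of 29 (48.3%), and CCGGAAG in 13 of 55 (23.6%) and 10 of 29 (34.5%). Motif letters in a window are a description and show no bound factor.

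The Sm proteins, which form the ring of the snRNPs, had peaks of modest strength. All 8 Sm genes held a peak in replicate 2 (against 32.6% of all protein-coding genes), and 4 held a shared region (against 17.2%). Snrpd3 was enriched 7.38-fold (95% counting interval 4.79 to 10.9) in replicate 1 and 5.57-fold (3.91 to 7.73) in replicate 2. The region lay nearer the end of Gucd1. Snrpb had 5.24 (3.13 to 8.32) and 6.05 (4.12 to 8.60), Snrpe had 6.25 and 5.05, and Snrpf had 4.61 and 7.85. Snrpd1, Snrpd2, Snrpg and Snrpn held a peak in replicate 2 only, with folds of 4.61, 3.23, 4.87 and 4.03. Snrpn, an imprinted gene that encodes an Sm protein abundant in neurons, spans 467683 bp in the table, and its peak summit lay 47 bp from one of its 4 listed start sites.

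The proteins specific to the U1 and U2 particles differed from each other. Snrpa, the U1 protein that binds a stem loop of the U1 RNA, had the best place of the Snrp genes, 145. It was enriched 7.40-fold (4.80 to 10.9) in replicate 1 and 8.67-fold (6.48 to 11.4) in replicate 2. Its close relative Snrpb2, of the U2 particle, had no peak in either list, and the nearest shared region lay 938649 bp away. Snrpc, also of U1, had folds of 3.56 (2.05 to 5.81) and 3.87 (2.56 to 5.64), among the lowest of the 50 genes. Snrpa1, of U2, had 6.55 (4.21 to 9.77) and 3.43 (2.13 to 5.25), and the last place of the 50 genes, 2900.

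Of the SF3A and SF3B genes, Sf3a1 stood first with place 103. It was enriched 8.04-fold (5.40 to 11.6) in replicate 1 and 10.3-fold (7.68 to 13.5) in replicate 2, at summits 193 and 190 bp after its start (chromosome 11, region 4160245 to 4160743). Sf3a2 had 5.55 (3.36 to 8.70) and 6.95 (4.79 to 9.78), in a region nearer the end of Plekhj1. Sf3b1, the branch point protein that is a frequent site of mutation in blood cancers in humans, had 5.50 (3.46 to 8.36) and 7.23 (5.19 to 9.82). Sf3b2 had 4.27 (2.59 to 6.69) and 5.47 (3.995 to 7.33), and Sf3b4 had 5.68 (3.75 to 8.28) and 4.01 (2.80 to 5.58). Sf3b3 had 3.28 (1.96 to 5.21) and 7.04 (4.85 to 9.90), the largest ratio of replicate 2 to replicate 1 among the 50 genes, with overlapping intervals. Sf3a3 and Sf3b5 held a peak in replicate 2 only, with folds of 4.01 and 3.08.

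The Prpf genes encode proteins of several steps, and few of them had strong peaks. Prpf40b, related to a U1-associated protein of yeast, was the exception, enriched 13.7-fold (10.2 to 18.1) in replicate 1 and 8.25-fold (5.84 to 11.3) in replicate 2. The replicate 1 value was the highest of the 50 genes in that library. Prpf4b, a kinase, had 8.32 (5.54 to 12.1) and 5.56 (3.78 to 7.90), and Prpf38b had 3.85 (2.22 to 6.29) and 4.63 (3.03 to 6.80). Prpf39 (6.16 and 4.90) and Prpf6 (4.28 and 3.83) also held a shared region. Prpf8, the scaffold at the centre of the spliceosome, held peaks in replicate 2 only, the stronger with a fold of 5.07 (3.19 to 7.71). Prpf31 and Prpf4, of the particle that joins U4, U6 and U5, also held a peak in replicate 2 only, with folds of 6.86 and 4.02. Prpf19, a ubiquitin ligase of the spliceosome, held one in replicate 1 only, with a fold of 5.24. Prpf3, Prpf18 and Prpf38a held no peak in either list.

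The U2AF genes, whose products bind the 3′ splice site, all held a region. U2af1 was enriched 4.93-fold (2.90 to 7.93) in replicate 1 and 7.96-fold (5.38 to 11.4) in replicate 2. U2af1l4 had 5.24 (3.13 to 8.32) and 5.48 (3.78 to 7.71), nearer the end of Psenen. U2af2 held a region at each of its ends. The region 874 bp from its low-coordinate end (chromosome 7, 5060899 to 5062620) had values of 5.84 (3.59 to 9.05) and 5.40 (3.63 to 7.77). The other (5079883 to 5080620), next to the end of Epn1, had 5.04 (3.05 to 7.90) and 5.21 (3.20 to 8.08).

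Among SR genes, Srsf7, Srsf3 and Srsf6 had the strongest regions. Srsf7, a shuttling SR protein that takes part in mRNA export, was enriched 9.56-fold (6.55 to 13.5) in replicate 1 and 14.4-fold (11.1 to 18.3) in replicate 2. Srsf3, with the best place of the SR and hnRNP genes (38), had 7.38 (5.37 to 9.92) and 9.93 (7.56 to 12.8). Srsf6 had 8.54 (6.02 to 11.8) and 11.01 (8.01 to 14.8). Srsf1, the first SR protein to be described as a splicing factor, had 6.85 (4.40 to 10.2) and 9.72 (7.01 to 13.1). Srsf4 had 6.13 (3.90 to 9.22) and 8.90 (6.45 to 12), and Srsf5 had 5.62 (3.65 to 8.31) and 5.73 (4.13 to 7.75). The fold was higher in replicate 2 at these 6 genes and lower at Srsf9 (4.93 and 4.34) and Srsf2 (4.45 and 3.63), with overlapping intervals at all 8.

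The other SR genes had peaks that were not shared. Srsf10 and Srsf12 held a peak in replicate 2 only, with folds of 3.03 and 5.29. Srsf11 held a peak in each list, but at different start sites. The summit of replicate 1 lay 4856 bp from a gene end and 63 bp before a listed start, and that of replicate 2 lay 194 bp from a gene end and 133 bp after the other listed start.

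Of the 18 splicing genes among the strongest 10% of regions, 8 were Hnrnp genes. Hnrnpa2b1, which binds RNA in splicing and transport, was enriched 9.84-fold (6.79 to 13.8) in replicate 1 and 11.3-fold (8.43 to 14.8) in replicate 2. Its summits lay 590 and 641 bp after the start (chromosome 6, region 51468835 to 51471252). Hnrnpa0 had 8.63 (5.79 to 12.4) and 10.9 (8.20 to 14.1), Hnrnpa3 had 7.09 (4.56 to 10.6) and 7.17 (4.97 to 10.03), and Hnrnpa1 had 7.19 (4.83 to 10.3) and 6.07 (4.26 to 8.41). All 4 genes of the A type thus held a region, while Hnrnpa1l2-ps2, whose symbol marks a pseudogene but which the table counts as protein-coding, held none. Reads that match several copies could be split by the authors' mapping, whose settings the sources used here do not state.

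Hnrnpc, which binds runs of U, and Hnrnph1, which binds runs of G, had the higher fold in replicate 1. Hnrnpc was enriched 10.9-fold (7.81 to 14.9) in replicate 1 and 6.34-fold (4.74 to 8.32) in replicate 2, and Hnrnph1 had 9.53 (6.53 to 13.5) and 5.88 (4.44 to 7.64). Hnrnpdl had 6.40 (4.07 to 9.63) and 11.03 (8.08 to 14.7), Hnrnpd, which binds AU-rich elements, 6.78 (4.31 to 10.2) and 9.96 (7.30 to 13.3), and Hnrnpk, which binds runs of C, 6.08 (4.02 to 8.87) and 8.63 (6.57 to 11.1). Here replicate 2 was higher. Intervals of the 2 libraries overlapped at each of these 5 genes. Hnrnpm had 7.71 (5.05 to 11.3) and 6.05 (4.31 to 8.28), and Hnrnpul1 had 7.09 (4.56 to 10.6) and 6.02 (4.20 to 8.38). Hnrnph3, Hnrnpul2, Hnrnpab, Hnrnpll and Hnrnpr held regions of later place, from 613 to 2060. Their folds ranged between 4.54 and 5.86 in replicate 1 and between 4.66 and 8.71 in replicate 2. In replicate 2 the folds of Hnrnph3, Hnrnpab and Hnrnpll were above those of Hnrnpm and Hnrnpul1, and those of Hnrnpul2 and Hnrnpr below.

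Hnrnpu, which encodes a nuclear scaffold protein, held a region at each end. The stronger (chromosome 1, 178318038 to 178319370) was enriched 10.4-fold (7.31 to 14.4) in replicate 1 and 9.40-fold (7.17 to 12.1) in replicate 2. It lay 2404 bp outside the low-coordinate end, which is not the end with the listed start, and was nearer the end of Cox20. The region around the start (178336343 to 178338122) had 4.11 (2.41 to 6.61) and 6.09 (4.23 to 8.52) and place 1603 in place of 46. Hnrnpl held peaks in replicate 2 only, the stronger with a fold of 6.86. Hnrnpf held 2 peaks in each list that did not overlap between lists. Hnrnph2, on chromosome X, held no peak in either list, unlike its paralogs Hnrnph1 and Hnrnph3.

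The CLK kinases included the strongest region of all 73 genes. Clk1 (chromosome 1, region 58423229 to 58424134) had place 16 of 3111, enriched 9.96-fold (7.22 to 13.4) in replicate 1 and 17.4-fold (13.8 to 21.7) in replicate 2. It was the only one of the 50 genes whose intervals in the 2 libraries did not overlap, and of all protein-coding genes with a region 1.68% had such intervals. Clk4 had 7.59 (5.23 to 10.7) and 8.33 (6.47 to 10.6), and Clk3 had 7.71 (5.05 to 11.3) and 7.46 (5.29 to 10.3). Clk2 held a peak in replicate 2 only, with a fold of 5.21 (3.47 to 7.54).

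**Figure D4:**
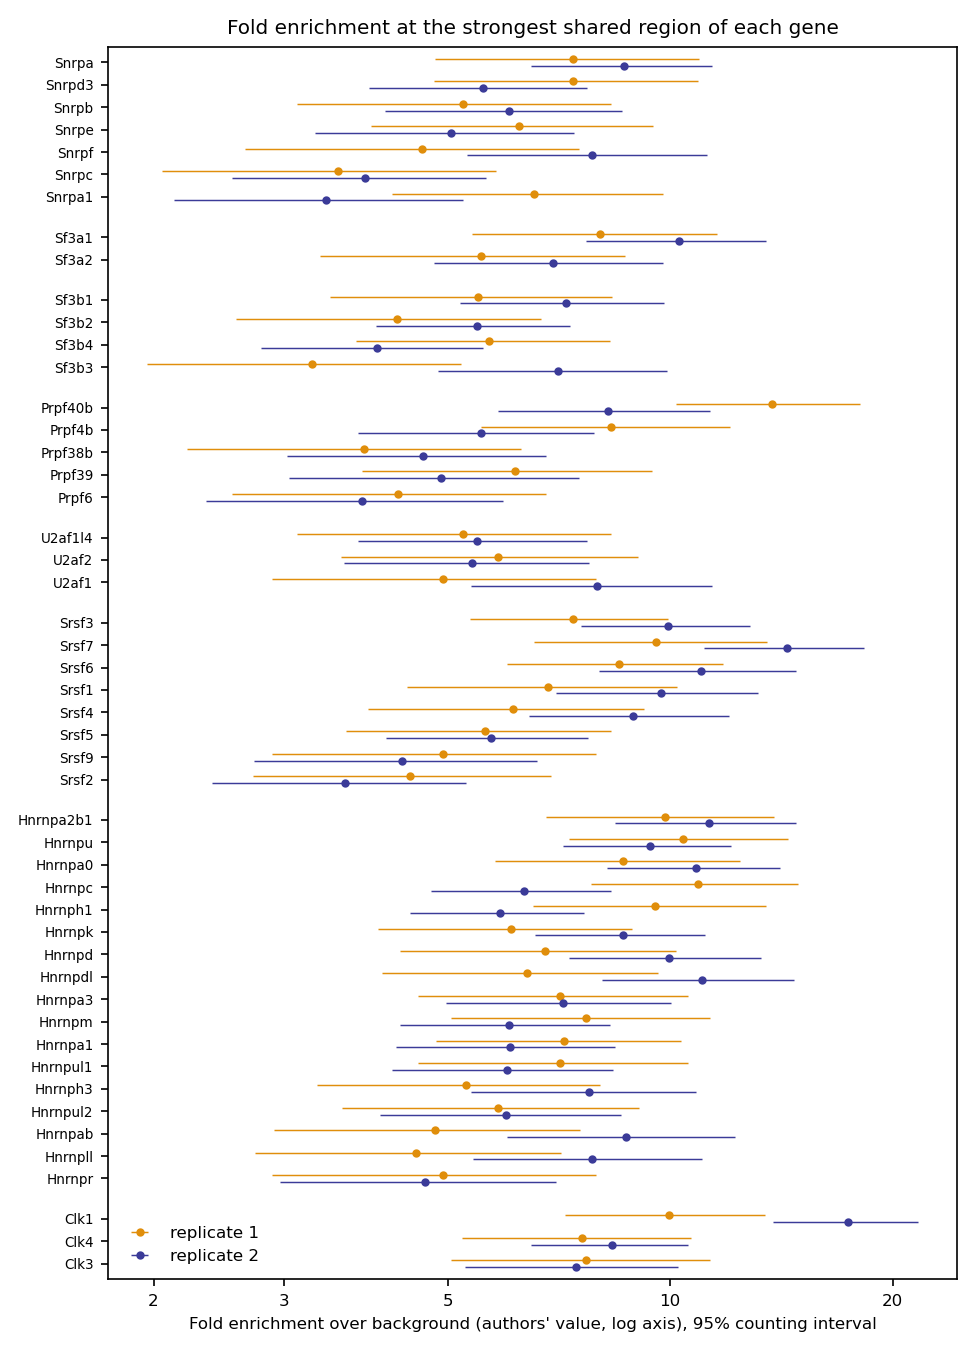
Authors' fold enrichment over background (x axis, log scale) at the strongest shared region of 49 of the 50 genes (y axis, grouped by family), for replicate 1 in orange and replicate 2 in blue, with exact Poisson 95% counting intervals. Clk1 has the highest replicate 2 point (17.4) and Prpf40b the highest replicate 1 point (13.7).

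Where a start site was listed, the shared regions lay at it and more often downstream than upstream. Start sites were on hand for 43 of the 50 genes, and in 42 of them both summits lay within 1 kb of a start, Hnrnpu being the exception for its stronger region. Of all protein-coding genes with a region and a start site, 86.0% met this. Over these 42 genes the median summit position was 159 bp after the start in replicate 1 and 131.5 bp in replicate 2, where the 2661 protein-coding genes with both summits within 1 kb had 89 and 88 bp. Both summits lay downstream at 28 of the 42 genes (66.7%, against 56.0% of the 2661), both upstream at 9, and on opposite sides at 5. Positions were taken from the nearest start site, and at Snrpa, with 2 listed, summits on opposite sides were 12 bp apart.

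Median positions in replicates 1 and 2 were 95 and 138 bp for core snRNP genes and 164.5 bp in each for SR and hnRNP genes. Summits far downstream lay at SR and hnRNP genes such as Hnrnpab (421 and 662 bp), Hnrnpa3 (476 and 618 bp), Hnrnpdl (479 and 444 bp), Srsf5 (466 and 499 bp) and Srsf1 (370 and 555 bp). The farthest downstream summit of a core snRNP gene lay at 273 bp, at Snrpa1. Far upstream summits lay in both classes. Core snRNP examples were Snrpd3 (−788 and −94 bp) and Sf3a2 (−716 and −281 bp). Hnrnpa0 (−648 and −179 bp) and Srsf2 (−576 and −429 bp) were examples among SR and hnRNP genes. Summits of the 2 libraries were a median of 111 bp apart at the 50 genes.

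**Figure D5:**
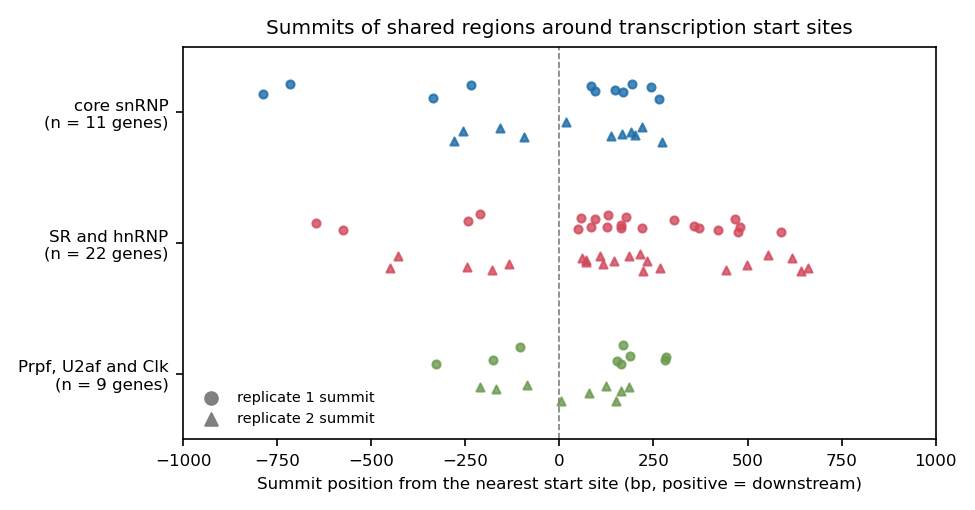
Summit positions in bp from the nearest listed start site (x axis, positive is downstream, dashed line at the start) for the strongest shared region of 42 genes, by class (y axis), with circles for replicate 1 and triangles for replicate 2; Hnrnpu is not drawn, since its stronger region lies by another gene. Both summits lie downstream at 28 of the 42 genes, with medians in replicates 1 and 2 of 95 and 138 bp for core snRNP genes and 164.5 bp in each for SR and hnRNP genes.

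Several regions lay between neighbours and cannot be given to the splicing gene alone. At 10 of the 50 genes (20%, against 21.5% of all protein-coding genes with a region) another protein-coding gene had the nearer end. Among these, besides genes already given with a neighbour, Hnrnpc shared its region with Rpgrip1, Hnrnpk with Rmi1, Hnrnpdl with Enoph1, Hnrnpd with 4930524J08Rik and Hnrnpll with 4933407O12Rik. With each region credited solely to the closest gene end, 41 of the 73 genes held one (against 13.7% of all protein-coding genes), with 11 of 21 core snRNP genes and 20 of 32 SR and hnRNP genes. At the edge of the 3 kb window, the region farthest from a gene end among the 50 was that of Hnrnph1, 2439 bp from its end but at a listed start. Just outside it, a shared region lay 3011 bp from Hnrnpl, 3048 bp from Prpf31 and 3834 bp from Srsf10.

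Of the 23 genes without a shared region, most held a peak in the longer list. Peaks confined to the list of replicate 2 were held by 13 of 73 genes (17.8%, against 14.8% of all protein-coding genes). This share is near that of all genes, and 7 genes held none in either list (9.59%, against 64.2%). A further 1 held a peak in replicate 1 only (1.37%, against 3.14%), and 2 held peaks in both lists without overlap (2.74%, against 0.579%). Among genes without a shared region, those with a peak in replicate 2 only were 13 of 23, against 3233 of 18035 over all protein-coding genes. The 13 genes included 6 core snRNP genes and 3 SR and hnRNP genes. Their strongest peaks in replicate 2 had a median fold of 4.61, a median of 21 reads at the summit and a median rank of 3103 of 6403, close to the medians of 4.74 and 22 reads over that whole list. The 50 genes with a shared region had medians of 6.996, 33.5 reads and rank 676 in the same list. Whether the shorter list of replicate 1 missed these peaks was not tested, and absence of RUVBL2 at the 23 genes was not shown.

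Spliceosome genes outside the naming rule held a region less often than the 73 genes, a difference that was not tested. Of 74 such genes on a list of snRNP, helicase, exon junction and SR-related genes, 36 held a shared region (48.6%, exact 95% interval 36.9 to 60.6), against 17.2% of all protein-coding genes. With replicate 1 left out, 57 held a peak (77.0%), against 32.6%. Of the 7 genes named Snrnp, 2 held a shared region (28.6%, against 17.2%), and 4 held a peak in replicate 2 (57.1%, against 32.6%). The strongest regions of the 74 genes lay at Rbm39 and at Ddx39b. Next came Son, a large SR-related protein of nuclear speckles, enriched 9.97-fold (6.99 to 13.8) in replicate 1 and 10.6-fold (8.02 to 13.7) in replicate 2. Luc7l3 had 10.00 (6.94 to 14.0) and 10.3 (7.70 to 13.6), and Tra2b, an SR-like regulator, had 8.32 (5.54 to 12.1) and 14.4 (10.8 to 18.8). The 36 genes had a median place of 1040, against 535 for the 50 genes of the rule and 1513 for all protein-coding genes with a region.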

How the data were processed

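Chromatin from WT hypothalamus was immunoprecipitated for RUVBL2. For each of the 2 ChIP libraries a peak list and a summit list were deposited, called per library; no file of the input libraries was used here, and whether they entered the authors' background is not stated. Per the submitters' processing notes, MACS2 2.1.0, Bowtie2 2.3.4.1, Trimmomatic 0.33, bcl2fastq 2.17 and ChIPseeker were applied on GRCm38, without settings being stated. The deposited values are a fold ratio over background, −log10 p and −log10 q values, and a score, which is the −log10 q times 10 without its decimals. The second list was assigned by its sample, its peak names (Hyp3) differing from the title (Hyp2). No library totals were on hand. Summit read numbers stand for depth and were solved from fold and −log10 p: 100% of peaks gave a whole number within a relative tolerance of 0.0001, a step tested on simulated data. Genes that end before 3 Mb were left out except on Y. Regions, counts and intervals were computed in Python 3.11.15 with numpy 2.4.6, pandas 2.3.3 and scipy 1.17.1. No significance test was run: shares stand beside those of all protein-coding genes. Alternatives were a 50% overlap, summits within 250 bp, a −log10 q of at least 5, the top 1000 peaks, a 1 kb window, the nearest gene end, a wider core class, and each library alone. The genes and lists were chosen with earlier results of these data known. Every gene is counted, and the values of 1 gene are not reported here. Values with intervals go to the 25 best-placed genes, all Clk and U2af genes, the 3 best of each other family and genes with 2 regions. Other genes given with values, the genes of the broadest and narrowest regions, and the promoters of Sf3b6 and Snrpb2 were chosen after their values were seen.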

Additional observations from a re-analysis of the deposited data

How the results depend on the processing

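No paired analysis was possible because no file of the input libraries, which share the replicate numbers, was used and no test was run. Of 59 alternative values, 49 kept within 1.5 times the count reported, or within the counting interval of the difference in share, and 10 moved. Counts cannot change sign, so only the difference in share could turn round, and it did not. The share of core snRNP genes minus that of SR and hnRNP genes was negative under each alternative run. It was −3.27 percentage points with replicate 2 alone and −22.5 with replicate 1 alone. The alternatives draw on the same 2 lists, so the constant sign is not repeated support. The counting interval of the reported difference was −39.9 to 7.98 points, which spans both signs. With Prpf and U2af genes counted as core the difference was −18.7, and 22 of 37 such genes held a region. That count is among those that moved because the class is larger, while the share was 59.5%, against 61.9% for the 21 genes. With the top 1000 peaks of each list, 25 of 73 genes held a region in the body and 25 at a gene end, 3 core snRNP genes did, the difference was −42.0 points, 23 of 63 genes had both summits within 1 kb of a start, and 13 other spliceosome genes held a region. With a −log10 q of at least 5, 8 core snRNP genes and 21 other spliceosome genes did. Leaving out a library gave 53 to 65 genes in the body, 51 to 63 at a gene end, 13 to 19 core snRNP genes, 27 to 30 SR and hnRNP genes, 41 to 57 other spliceosome genes, and 45 to 54 genes with summits at a start. A region was found under all 9 settings at 20 genes (27.4%) and at 480 of all 21779 protein-coding genes. The share of all protein-coding genes with a region in the body was 3.08% with the top 1000 peaks, 8.50% at the stricter −log10 q, and 20.9% to 32.6% with a library left out. Alternatives for the other spliceosome genes and for start sites, except the region midpoint, were chosen after seeing the data. Depth limits the folds: with a median of 16 reads at a summit in replicate 1, only differences beyond the counting intervals can be ordered.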
